A study of Mus musculus with 6 samples.

Results

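The genes examined here encode 6 proteins that have been reported as substrates of the ubiquitin ligase UBE3A, and they were chosen by name: *Rad23b*, *Cdkn1b*, *Trp53*, *Rnf2*, *Mcm7* and *Ddi2*. All 6 were among the 25239 genes listed, and all 6 were among the 14445 genes with enough counts to be tested. RNA was sequenced from the hippocampus of 3 WT mice (Ube3am+/p+) and 3 Ube3am-/p+ mice, with 1 library per mouse. All were young male mice on the C57BL/6 background, untreated as far as the labels say. Ube3am-/p+ mice, a model of Angelman syndrome, lack a working maternal copy of *Ube3a* and carry an intact paternal copy, and the construct that inactivates the maternal copy is not given in the sources used here. The comparison asks whether the RNA of reported substrates differs between the genotypes.

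UBE3A, also called E6AP, is a HECT-type E3 ligase that attaches ubiquitin to other proteins, many of which are then degraded by the proteasome. The gene is imprinted in the brain: neurons mostly use the maternal copy, whereas glial cells use both. The 6 substrates work in distinct places. RAD23B and DDI2 carry ubiquitinated proteins to the proteasome or cut them, CDKN1B (p27) and TRP53 (p53) restrain the cell cycle, RNF2 (RING1B) is the ubiquitin ligase of Polycomb repressive complex 1, and MCM7 is a subunit of the helicase that opens DNA for replication. Ubiquitination acts on proteins, and RNA counts do not measure protein.

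WT libraries held 7293272 to 8675252 counts on genes, and Ube3am-/p+ libraries 8871052 to 11314409. Libraries also differed in how counts depended on the GC content of transcripts. Across genes within a library, the Spearman correlation of GC content with the centred log2 level was -0.506 and -0.571 in WT mice 2 and 3, 0.526 and 0.528 in Ube3am-/p+ mice 2 and 3, and 0.0455 and 0.0588 in the mice numbered 1. This dependence therefore ran with genotype in 4 of the 6 libraries, and values corrected for GC content and length of the transcripts (the GC and length correction) are given beside the results. The correction was fitted to each library without a genotype term, so it can also remove differences that go with genotype. Neither the corrected nor the uncorrected value is taken as the truer. All marker lists of hippocampal cell types were detected. The summed CPM (counts scaled to a common total of counts on genes) of 6 oligodendrocyte markers was 7954 to 8070 in WT and 6641 to 7568 in Ube3am-/p+ mice, that of 6 microglial markers 371 to 404 and 339 to 362, and that of 5 endothelial markers 241 to 251 and 210 to 223. For 4 markers of oligodendrocyte precursors it was 309 to 322 and 286 to 299, and for 8 meningeal and fibroblast markers 235 to 332 and 336 to 559. Most of this last sum was *Ptgds*, at 186 ± 40.6 and 296 ± 79.1 CPM (SD, n = 3). Of the 8, only *Ptgds*, *Col1a1* and *Col1a2* did not overlap between the genotypes, and *Lum* had a log2 fold change of 0.016. The genotypes overlapped in the sums of the neuron, astrocyte, choroid plexus and dividing cell markers. The neuron sum was mostly *Camk2a*, at means of 5550 and 5616 CPM in WT and Ube3am-/p+ mice. Of 8 neuron markers, 3 were higher and 5 lower in Ube3am-/p+ mice. The genotypes did not overlap for 3 of the 8, against 25.0% of all genes tested. These were *Slc17a7*, at a log2 fold change of 0.35 (corrected 0.18), *Gad1*, at -0.21 (-0.15), and *Wfs1*, at -0.34 (-0.53). Of 6 astrocyte markers, 3 were higher and 3 lower, and 2 did not overlap. The choroid plexus sum was 99.0 to 2158 and 105 to 2251. Not all markers went with their sum: 3 of the 6 oligodendrocyte, 2 of the 6 microglial and 1 of the 5 endothelial markers were higher in Ube3am-/p+ mice. *Pdgfra* of the precursors was called, at a log2 fold change of -0.43 (edgeR adjusted p = 0.0466). So was the collagen gene *Col1a1*, at 0.73 (adjusted p = 0.0416). No other marker was called, against 2.01% of all genes tested. After the GC and length correction they had -0.36 (adjusted p = 0.0459) and 0.55 (adjusted p = 0.0751). The oligodendrocyte marker *Mobp* was called only with the correction, at -0.33 (adjusted p = 0.0429), against 0.648% of all genes. The part of these cell types in the results below was not tested. In whole tissue, fewer cells of a type and less RNA per cell cannot be told apart.

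*Ube3a* itself was lower in Ube3am-/p+ mice. Its level was 104, 141 and 151 CPM in WT mice 1, 2 and 3 and 96.8, 82.9 and 80.6 CPM in Ube3am-/p+ mice 1, 2 and 3. The genotypes did not overlap, although WT mouse 1 lay nearer to the Ube3am-/p+ mice than to the other WT mice. The log2 fold change was -0.58 (SE 0.12, edgeR adjusted p = 0.0363), and after the GC and length correction it was -0.20 (adjusted p = 0.241). The longest *Ube3a* transcript had a GC content of 36.94%. The call was also lost without WT mouse 2 (-0.53) or 3 (-0.48), and without Ube3am-/p+ mouse 2 (-0.54) or 3 (-0.54).

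None of the 6 substrate genes was differentially expressed at an edgeR adjusted p below 0.05 with a fold change above 1.2, against 2.01% of all genes tested. The count was also 0 at an unadjusted p below 0.05, which 24.6% of all genes passed, and 0 by DESeq2, which called 5.34% of all genes. After the GC and length correction it was 0 of 6, against 0.648% of all genes. The log2 fold changes ran from -0.19 for *Rnf2* to 0.21 for *Ddi2*, with 4 of the 6 negative. Their median absolute size was 0.15, and that of all tested genes was 0.18. With 3 mice per genotype the smallest p an exact permutation test can give is 0.1.

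**Figure D1:**
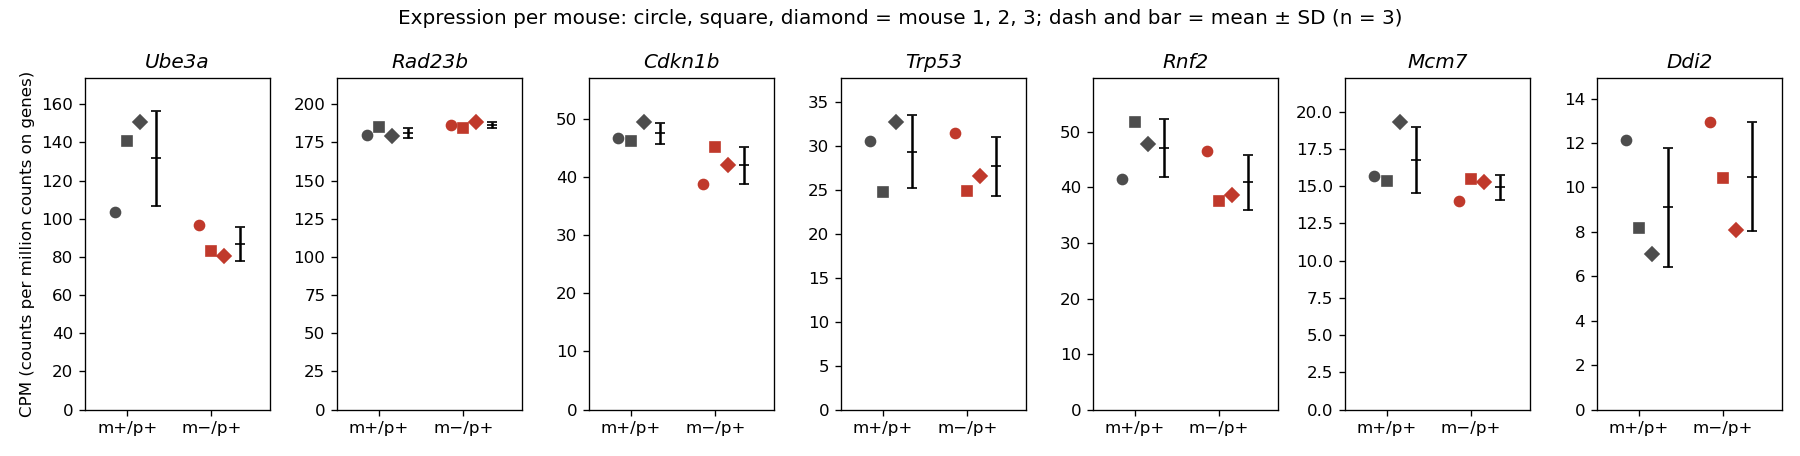
CPM of *Ube3a* and the 6 substrate genes in each mouse (vertical axes, each from 0), for WT (m+/p+, grey) and Ube3am-/p+ (m−/p+, red) mice, with the mean ± SD of 3 mice beside the points. *Ube3a* and *Cdkn1b* show no overlap between the genotypes, and *Rad23b* lies within 179 to 189 CPM in all 6 mice.

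*Rad23b*, which encodes a shuttle that binds ubiquitin chains and the proteasome and also stabilises the DNA damage sensor XPC, was the steadiest of the 6. It lies on chromosome 4, 55350043 to 55392237, plus strand (GRCm38). Its level was 180, 185 and 179 CPM in the WT mice and 186, 185 and 189 CPM in the Ube3am-/p+ mice. The means were 181 ± 3.36 and 187 ± 2.03 CPM (SD, n = 3). The genotypes overlapped in CPM, and did not overlap once TMM scaling factors were applied, as for 24.8% of all genes tested. Its log2 fold change was 0.060 (SE 0.08, edgeR adjusted p = 0.674), and its 95% interval reached from a fold of 0.929 to 1.17, which lies inside the 1.2-fold threshold in both directions. After the GC and length correction the log2 fold change was 0.14 (adjusted p = 0.351), and its 95% interval of 0.00034 to 0.28 left out 0 and reached past the threshold of 0.26.

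*Ddi2*, the retroviral-type protease that cleaves and activates the proteasome transcription factor NFE2L1, was the least abundant and the most variable. It lies on chromosome 4, 141677549 to 141723419, minus strand. Its level was 12.1, 8.18 and 6.99 CPM in the WT mice and 13.0, 10.4 and 8.08 CPM in the Ube3am-/p+ mice. In both genotypes mouse 1 was highest and mouse 3 lowest, and the genotypes overlapped. The log2 fold change of 0.21 (SE 0.22, edgeR adjusted p = 0.597) had a 95% interval from a fold of 0.833 to 1.60, which includes both no difference and changes above 1.2-fold. The corrected value was 0.27 (adjusted p = 0.558). The spread between mice was 29.6% of the mean in WT and 23.3% in Ube3am-/p+ mice, and the counting error of a library 9.21% to 14.0%. WT mouse 3 had 51 *Ddi2* counts, for which the exact Poisson interval of 38.0 to 67.1 covers counting error only. The value moved with single mice: the log2 fold change was 0.47 without WT mouse 1 (edgeR adjusted p = 0.153), 0.052 without WT mouse 3 (adjusted p = 0.94) and 0.046 without Ube3am-/p+ mouse 1 (adjusted p = 0.921). *Rsc1a1* shares 1749 bp of exon sequence with *Ddi2* on the same strand and had 5 counts over all libraries. Reads on this stretch fit both genes, so they may be missing from the counts of either.

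*Cdkn1b*, an inhibitor of cyclin-dependent kinases that holds cells in G1 and is kept high in neurons after they leave the cycle, was the only substrate gene whose genotypes did not overlap in CPM, against 25.0% of all genes tested. It lies on chromosome 6, 134920401 to 134925513, plus strand. Its level was 46.6, 46.2 and 49.5 CPM in the WT mice and 38.8, 45.2 and 42.0 CPM in the Ube3am-/p+ mice. All 3 Ube3am-/p+ values lay below all 3 WT values, by as little as the distance between 45.2 and 46.2. The means were 47.5 ± 1.78 and 42.0 ± 3.19 CPM (SD, n = 3). The log2 fold change was -0.16 (SE 0.10, edgeR adjusted p = 0.345, exact permutation p = 0.1), and the 95% interval reached from a fold of 0.775 to 1.04. After the GC and length correction it was 0.027 (adjusted p = 0.935), of opposite sign.

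The 250 bases before the *Cdkn1b* start are shown because this gene had the only separation of the genotypes in CPM. They come from RefSeq (GRCm38.p6, plus strand, chr6:134920151-134920400), with matches to the GC box GGGCGG and to CCAAT in capitals.
Cdkn1b: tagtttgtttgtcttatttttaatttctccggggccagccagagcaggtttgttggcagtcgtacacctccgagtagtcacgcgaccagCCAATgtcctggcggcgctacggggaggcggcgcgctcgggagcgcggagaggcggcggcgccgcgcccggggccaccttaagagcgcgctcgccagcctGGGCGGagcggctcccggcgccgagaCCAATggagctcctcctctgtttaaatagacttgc
The window held 1 GC box and 2 CCAAT matches, and its GC content was 64.4%, against a median of 52.4% over 32851 such windows. On either strand, 32.74% of all windows held GGGCGG and 33.85% held CCAAT. A match is a stretch of letters and does not show that a factor binds there.

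*Trp53* encodes p53, the transcription factor that answers DNA damage with cell cycle arrest or death, and was among the first proteins linked to UBE3A, through the E6 protein of papillomaviruses. It lies on chromosome 11, 69580359 to 69591873, plus strand. Its level was 30.5, 24.8 and 32.8 CPM in the WT mice and 31.5, 24.9 and 26.6 CPM in the Ube3am-/p+ mice. Mouse 2 was lowest in both genotypes, and the ranges nearly coincided. Between genotypes its log2 fold change was -0.069 (SE 0.13, edgeR adjusted p = 0.783), with a 95% interval from a fold of 0.787 to 1.16. After the GC and length correction it was -0.17 (adjusted p = 0.573).

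*Rnf2* encodes the catalytic subunit that places ubiquitin on histone H2A in Polycomb repressive complex 1. It lies on chromosome 1, 151458004 to 151500955, minus strand. Its level was 41.5, 51.9 and 47.9 CPM in the WT mice and 46.6, 37.6 and 38.6 CPM in the Ube3am-/p+ mice. The mice numbered 1 ran against the others: WT mouse 1 was below Ube3am-/p+ mouse 1, whereas WT mice 2 and 3 were above all Ube3am-/p+ mice. Over all mice the log2 fold change was -0.19 (SE 0.12, edgeR adjusted p = 0.323). Without both mice numbered 1, a choice made after seeing the data, it was -0.38 (edgeR adjusted p = 0.00747), and *Rnf2* was then the only substrate gene called, against 28.3% of all genes called in that fit. In the 4 libraries left in that fit the dependence on GC content ran with genotype, so GC dependence and genotype cannot be told apart there. The *Rnf2* transcript had the lowest GC content of the 6, at 39.52%. After the GC and length correction over all libraries the log2 fold change was 0.071 (adjusted p = 0.79). Exons of *Rnf2* and of *Trmt1l* on the opposite strand share 158 bp, and as the strand setting of the counting is not given, reads there cannot be assigned to either.

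*Mcm7*, a subunit of the MCM2-7 helicase that is loaded at origins before DNA synthesis, lies on chromosome 5, 138164583 to 138172422, minus strand. Its level was 15.7, 15.3 and 19.3 CPM in the WT mice and 14.0, 15.5 and 15.3 CPM in the Ube3am-/p+ mice. WT mouse 3 was above the other 5 mice, which lay together. *Mcm7* had a log2 fold change of -0.14 (SE 0.14, edgeR adjusted p = 0.561), and -0.25 (adjusted p = 0.431) after the GC and length correction. Its exons share 321 bp with *Ap4m1* and 64 bp with *Cops6* on the opposite strand. *Ap4m1* had a log2 fold change of 0.030 (edgeR adjusted p = 0.925) and *Cops6* one of 0.56 (adjusted p = 0.0632), and after the correction -0.057 and 0.50 (adjusted p = 0.908 and 0.242).

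*Mcm7* also hosts a cluster of 3 microRNAs on its own strand, and their sequences are shown because reads on this stretch could belong to host or microRNA. The main arms, from RefSeq (GRCm38.p6), have their seed (bases 2 to 8) in capitals.
mmu-miR-25-3p: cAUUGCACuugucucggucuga
mmu-miR-93-5p: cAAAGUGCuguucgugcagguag
mmu-miR-106b-5p: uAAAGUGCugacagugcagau
The arms mmu-miR-93-5p and mmu-miR-106b-5p share the seed AAAGUGC, and mmu-miR-25-3p has another, AUUGCAC. The hairpin genes *Mir25*, *Mir93* and *Mir106b* had 2, 1 and 1 counts over all 6 libraries, and the mature microRNAs were not measured.

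**Figure D2:**
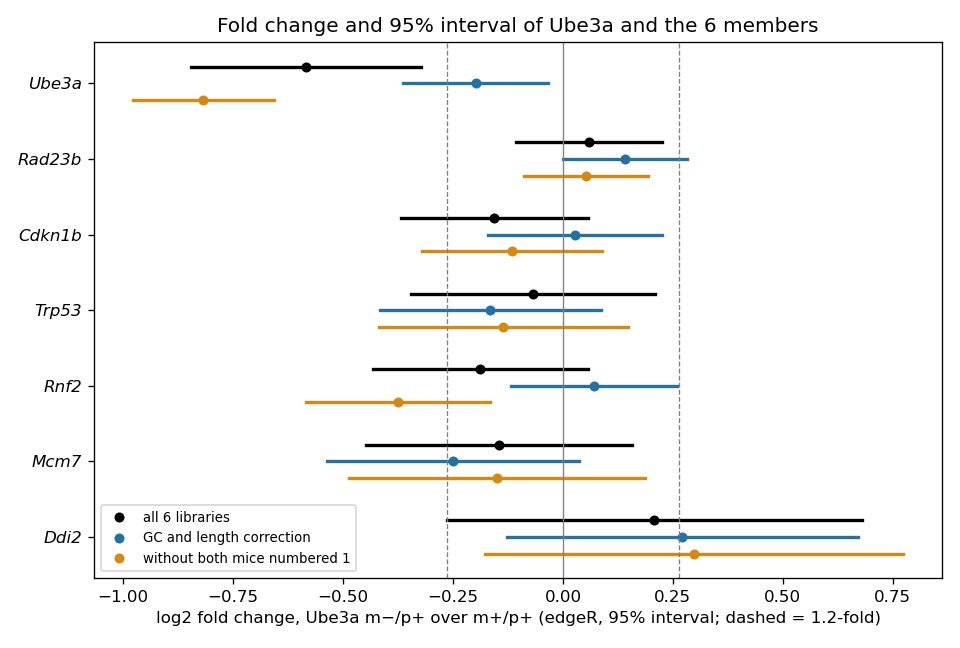
Log2 fold change, Ube3am-/p+ over WT, with its 95% interval from edgeR (horizontal axis) for *Ube3a* and the 6 substrate genes, over all 6 libraries (black), after the GC and length correction (blue) and without both mice numbered 1 (orange). The intervals over all libraries include 0 for each substrate gene, and the blue points of *Cdkn1b* and *Rnf2* lie on the other side of 0 from the black ones.

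Per transcript length, *Rad23b* was the most abundant, at 48.3 ± 1.00 CPM per kb of its longest transcript (SD, 6 libraries), followed by *Rnf2* at 13.7 ± 1.77, *Cdkn1b* at 9.82 ± 0.831, *Trp53* at 8.70 ± 1.07, *Mcm7* at 5.35 ± 0.611 and *Ddi2* at 1.03 ± 0.253. *Cdkn1b* and *Trp53* overlapped over libraries, with *Cdkn1b* above in 5 of 6, and the other neighbours in this order did not overlap.

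The relatives of the substrate genes described here were not called either. *Ring1*, which can replace RNF2 in its complex, had a log2 fold change of 0.33 (edgeR adjusted p = 0.208), and its genotypes overlapped. With the correction *Ring1* had 0.14 and *Rnf2* 0.071. The CDKN1B relatives *Cdkn1a* and *Cdkn1c* had 0.25 and 0.19 (adjusted p = 0.676 and 0.655, corrected 0.087 and -0.083). The p53 relatives *Trp63* and *Trp73* had -0.69 and -0.48 (adjusted p = 0.265 and 0.143, corrected -0.51 and -0.64), and no count fell on *Ddi1*. Counts per library were low, at 9 to 27 for *Trp63* and 21 to 99 for *Cdkn1a*, and the 95% interval of *Trp63* was -1.48 to 0.11. The genotypes did not overlap in CPM for *Trp73*, against 25.0% of all genes tested. Of the helicase partners of MCM7, *Mcm2* had 0.38, *Mcm3* 0.083, *Mcm4* 0.13, *Mcm5* 0.079 and *Mcm6* -0.091, with adjusted p of 0.272 or more. The corrected values were 0.32, 0.0050, 0.23, 0.014 and -0.025 in the same order. *Mcm6* was also without overlap between the genotypes, and *Mcm3* had 16 to 40 counts per library. Per kb, *Mcm6* was at 5.56 ± 0.212 and *Mcm7* at 5.66 ± 0.75 in WT mice, above the other 4 subunits.

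**Figure D3:**
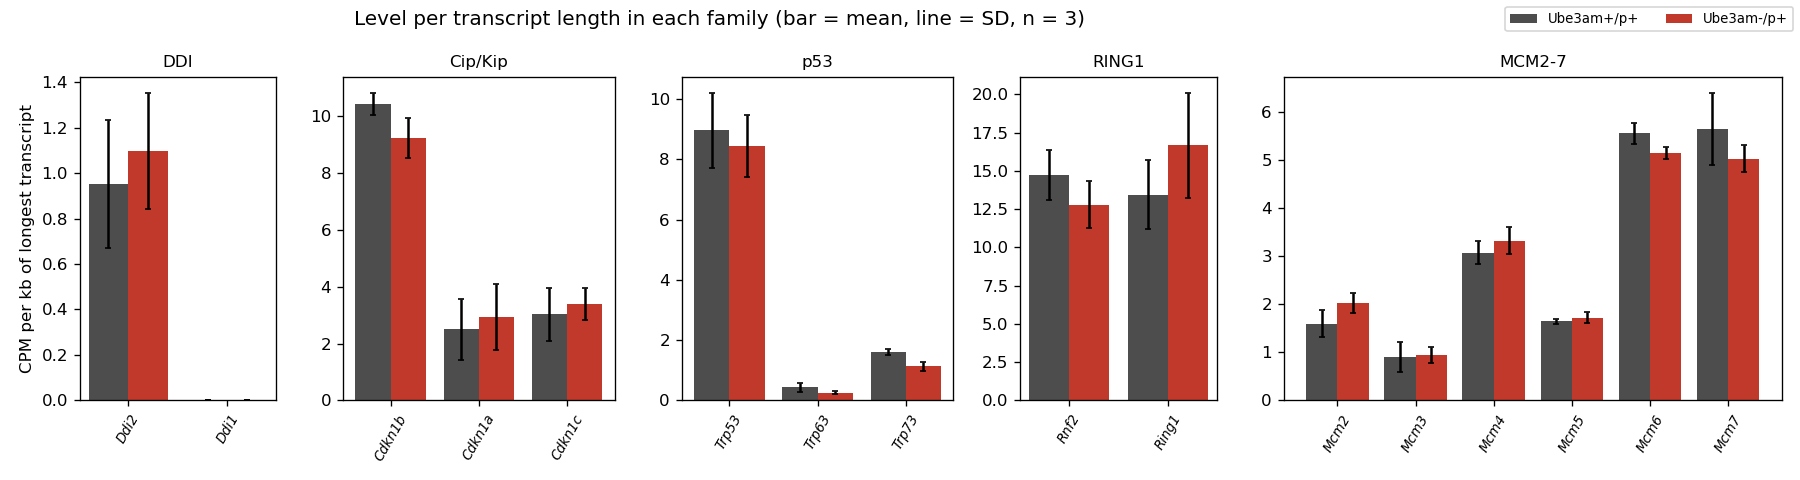
Level per kb of the longest transcript (vertical axes, CPM per kb, from 0) of 5 substrate genes and their relatives in WT (grey) and Ube3am-/p+ (red) mice, as mean with SD of 3 mice. *Cdkn1b* and *Trp53* are the highest in their families, *Rnf2* and *Ring1* are near each other, and *Ddi1* is at 0.

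The pathways around the substrates were described by lists of 91 partner genes, 85 of them tested. None was called by edgeR, and 5 were called by DESeq2, against 5.34% of all genes. At an unadjusted p below 0.05, 7 were higher and 13 lower in Ube3am-/p+ mice, and the genotypes did not overlap for 20 of the 85. Over all tested genes, 24.6% passed this unadjusted threshold and 25.0% did not overlap, so the partner genes lay near the background. The same 24.6%, in either direction, is the background for the counts of each list below. The median absolute log2 fold change was 0.18 over the partner genes, as over all genes. After the GC and length correction it was 0.094 over the partner genes and 0.15 over the 6 substrate genes. The corrected value over all genes is not reported here, so 0.094 is not read as a trait of the partner genes.

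Among 15 tested genes of ubiquitin shuttling and the DDI2 route, 3 were higher and 0 lower at an unadjusted p below 0.05. *Nfe2l1*, the transcription factor that DDI2 activates, was 241 ± 33.0 and 308 ± 29.5 CPM in WT and Ube3am-/p+ mice (SD, n = 3), a log2 fold change of 0.37 (edgeR adjusted p = 0.0632). The proteasome ubiquitin receptors *Adrm1* and *Psmd4* had 0.35 and 0.21 (adjusted p = 0.073 and 0.197). With the correction *Nfe2l1*, *Adrm1* and *Psmd4* had 0.26, 0.21 and 0.094 (adjusted p = 0.0883, 0.262 and 0.647).

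Of the 17 tested genes of kinase inhibition around CDKN1B, 0 were higher and 2 lower: *Ccnd2*, a D-type cyclin, at -0.22 and *Foxo1*, a transcription factor that can raise *Cdkn1b*, at -0.23 (edgeR adjusted p = 0.166 and 0.173). *Cul1* and *Skp1a*, core subunits of the SCF ligase that degrades CDKN1B, had -0.20 and -0.17 (adjusted p = 0.232 and 0.262). Corrected for GC content and length, *Ccnd2*, *Foxo1*, *Cul1* and *Skp1a* had -0.12, -0.16, -0.055 and -0.097, with adjusted p of 0.452 or more.

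Of the 17 tested genes of the p53 route, 3 were higher and 5 lower at the unadjusted threshold, against 24.6% of all genes tested in either direction. *Mdm2*, the main ligase for p53 and itself a p53 target, was 67.6, 76.9 and 71.8 CPM in the WT mice and 57.2, 56.1 and 56.3 CPM in the Ube3am-/p+ mice. The genotypes did not overlap, and the log2 fold change was -0.33 (edgeR adjusted p = 0.0589), or -0.25 (adjusted p = 0.133) after the GC and length correction. The p53 targets *Trp53inp1* and *Bax* lay on opposite sides, at -0.60 (adjusted p = 0.0611) and 0.56 (adjusted p = 0.0679), and after the correction at -0.29 and 0.16. Their transcripts had GC contents of 38.81% and 63.55%.

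Of the 18 tested genes of Polycomb repressive complex 1, 1 was higher and 3 lower. *Pcgf6*, *Bmi1* and *Yaf2*, which encode partners of RNF2 in different forms of the complex, had -0.38, -0.29 and -0.24 (edgeR adjusted p = 0.0756, 0.117 and 0.117), and *Cbx8*, a chromodomain subunit, had 0.57 (adjusted p = 0.171). Corrected values were -0.26 for *Pcgf6*, -0.046 for *Bmi1*, -0.18 for *Yaf2* and 0.44 for *Cbx8*, with adjusted p of 0.242 or more. Of the 19 tested genes of replication licensing, 0 were higher and 3 lower. The origin recognition subunits *Orc4*, *Orc5*, *Orc2* and *Orc3* had -0.49, -0.36, -0.25 and -0.22 (adjusted p = 0.0601, 0.114, 0.184 and 0.211), and after the GC and length correction -0.15, -0.056, -0.12 and 0.067.

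**Figure D4:**
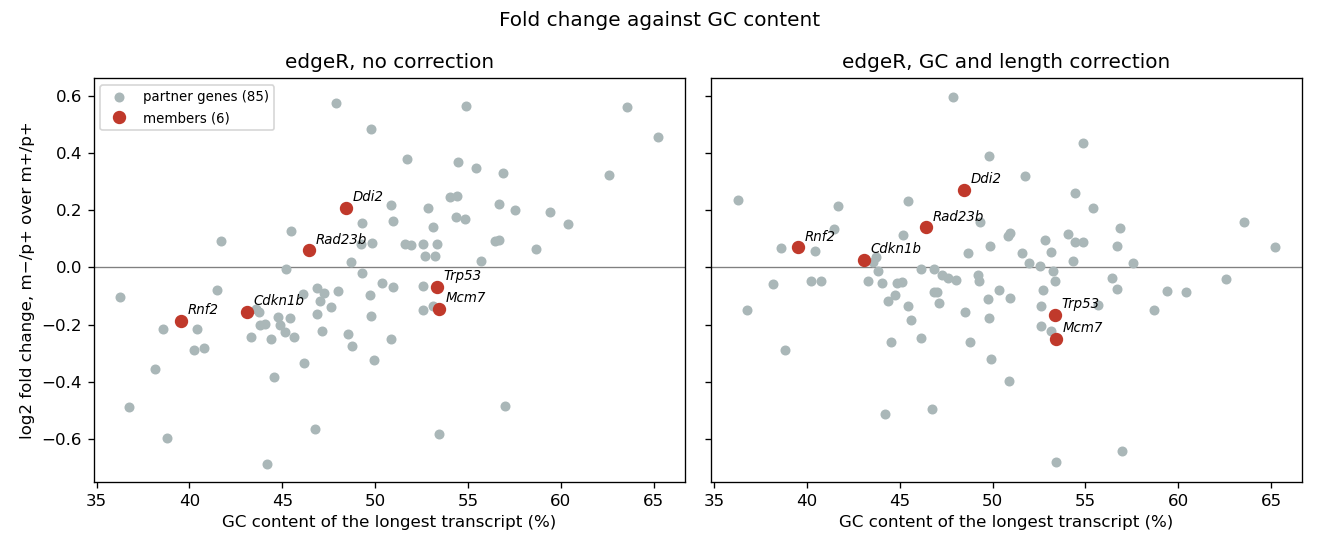
Log2 fold change, Ube3am-/p+ over WT (vertical axis), against the GC content of the longest transcript (horizontal axis, %) for the 85 tested partner genes (grey) and the 6 substrate genes (red), before (left) and after (right) the GC and length correction. On the left, *Rnf2* and *Cdkn1b* lie below 0 at low GC content, and on the right both lie above 0.

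Among 15 genes of other proteins reported or proposed as UBE3A targets, 12 were tested, and none was called by edgeR, whereas 2 were called by DESeq2, against 5.34% of all genes. At an unadjusted p below 0.05, 4 were higher and 1 lower, against 24.6% of all genes tested in either direction. *Cebpa*, a transcription factor, was 15.9 ± 1.85 and 22.8 ± 1.83 CPM in WT and Ube3am-/p+ mice (SD, n = 3), a log2 fold change of 0.54 (edgeR adjusted p = 0.0507). *Ptpa*, an activator of protein phosphatase 2A, had 0.35 (adjusted p = 0.059). With the correction *Cebpa* had 0.24 (adjusted p = 0.382) and *Ptpa* 0.22 (adjusted p = 0.13). *Kcnn2*, a calcium-activated potassium channel of hippocampal neurons, was 69.7 ± 5.18 and 56.8 ± 2.50 CPM, a log2 fold change of -0.28 (adjusted p = 0.0933), and after the GC and length correction -0.40 (adjusted p = 0.0284). *Arc*, an activity-regulated gene, chosen here after its values were seen, had -0.16 (adjusted p = 0.34) before and -0.38 (adjusted p = 0.0229) after that correction.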

How the data were processed

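Per the labels, total RNA from 3 WT (Ube3am+/p+) and 3 Ube3am-/p+ mouse hippocampi was sequenced. The authors deposited raw counts per gene symbol, 1 library per mouse, with no normalization. The submitters' processing notes name STAR 2.7.4a, HTSeq and mm10, while the annotation and strand setting are not given in the sources used here. Reads listed on no gene, ambiguous reads and reads with several alignments were left out of library sizes, and 39.0% to 41.8% of listed reads were on genes. Reads on no gene made up 54.1% to 55.0% of listed reads, and ambiguous reads 0.297% to 0.383%. The cause of the share on no gene was not tested.

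CPM were computed on total gene counts. Genes kept by filterByExpr were tested in R 4.3.3 with edgeR 4.0.16 (TMM, robust quasi-likelihood F test, two-sided, genotype only), with Benjamini-Hochberg adjustment over 14445 genes. Calls needed an adjusted p below 0.05 together with more than 1.2-fold change. Single values were also compared by exact permutation. The GC and length correction fitted natural splines with 5 degrees of freedom per library, on the longest GENCODE M21 transcript (GRCm38), for 14201 of the tested genes, all substrate and tested partner genes included. Alternatives were DESeq2 1.42.0, other scaling, filters and thresholds, a replicate block, and leaving out mice. The steps were tested on simulated counts. These held no dependence on GC content or length, so the test does not show how the correction acts where such dependence runs with genotype. Nothing in the labels ties a mouse to a litter or batch.

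The substrate genes and the gene lists were chosen with earlier results of these data known. Genes named were all substrate genes, *Ube3a*, their relatives, overlapping genes, the genes with the nearest profiles, and per list the genes called or else up to 4 with the smallest p. Some genes that this rule covers are not reported here.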

Additional observations from a re-analysis of the deposited data

How the results depend on the processing

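No substrate gene was called under the alternatives run, except 1 (*Rnf2*) without both mice numbered 1, an alternative added after seeing the data. Of 96 recomputed fold changes of substrate genes, 6 changed sign: *Cdkn1b* to 0.027 and *Rnf2* to 0.071 under the GC and length correction, 0.022 and 0.072 with the replicate block added to it, and *Trp53* in the range -0.18 to 0.013 when each mouse was left out. Among other named genes, *Orc3* became 0.067 and 0.066, *Cdkn1c* -0.083 and -0.071 and *Ap4m1* -0.057 and -0.055 under the same pair of settings, and leaving out each mouse gave -0.096 to 0.57 for *Cdkn1a*, -0.11 to 0.38 for *Mcm3* and -0.036 to 0.13 for *Ap4m1*. *Ube3a* missed the threshold at -0.20 with the correction, -0.19 with block and correction and -0.57 with the block alone, and ranged from -0.73 to -0.48 when each mouse was left out.

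Called partner genes numbered 0 over all libraries, 5 by DESeq2, 6 without a filter, 14 at an unadjusted p with the same fold threshold, 28 without both mice numbered 1, and 0 to 15 when each mouse was left out, with 15 without WT mouse 1 and 10 without Ube3am-/p+ mouse 1. Other reported targets numbered 0, then 2 by DESeq2, 2 with the correction, 1 with RLE size factors, 1 with at least 10 counts in every library, 2 without a filter, 3 at that unadjusted p and fold, 6 without both mice numbered 1, and 0 to 5 when each mouse was left out. All genes called numbered 290, then 772 by DESeq2, 92 with the correction, 1176 without a filter, 2832 at that unadjusted p and fold, 4138 without both mice numbered 1, and 0 to 2582 when each mouse was left out (2582 and 1816 without WT and Ube3am-/p+ mouse 1, and at most 2 without any of the other 4 mice). With the replicate block they numbered 0, and 14 with block and correction. As shares, 2.01% of all genes were called over all libraries, 5.34% by DESeq2, 0.648% with the correction and 28.3% without both mice numbered 1. The counts above are to be read against these shares, with 85 partner genes and 12 other reported targets tested over all libraries. Same-numbered mice correlated at -0.285, -0.177 and -0.311 in their deviations from the genotype means, and they were not treated as pairs. This measure cannot show whether same-numbered mice share a batch, as mice lying between the genotypes deviate in opposite directions. The mice numbered 1 were alike in GC dependence, at 0.0455 and 0.0588. The cause of the shifts in the numbers of calls was not tested. Among the substrate genes, counts were lowest for *Ddi2*, at 51 to 118 per library.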

Other observations

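The genes whose profile over the 6 libraries was nearest to that of each substrate gene, by the root mean square difference of centred log2 CPM, were *Gtf3c1* (0.0157) and *Abhd12* (0.0166) for *Rad23b*, *Paip2b* (0.0252) and *Zbtb34* (0.0261) for *Cdkn1b*, *Slc25a16* (0.0321) and *Pts* (0.0356) for *Trp53*, *Skil* (0.0220) and *Mtdh* (0.0262) for *Rnf2*, and *Tmem144* (0.0350) and *Snapin* (0.0378) for *Mcm7*. For *Ddi2* the nearest were *Incenp* (0.127) and *Nsrp1* (0.132). Of about 10421 candidates, 2403 lay within 0.1 of *Rad23b*, 985 of *Rnf2*, 700 of *Cdkn1b*, 350 of *Mcm7*, 86 of *Trp53* and 0 of *Ddi2*. All profiles come from the same 6 libraries, with their depth and GC dependence, and no shared function is read from the likeness.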
